A study of Mus musculus with 24 samples.

Results

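The array carried 55 genes for splicing factors and spliceosome proteins, out of 8251 genes with a probe set of their own. They were chosen by gene symbol alone: the Srsf, Hnrnp, Sf3a, Sf3b, Snrp, Prpf, U2af, Tra2, Srrm and Ptbp families, with Hnrnpdl left out. RNA came from primary mouse embryonic fibroblasts that were CHOP-/- or wild type, and was hybridised to 24 arrays in 6 groups of 4, lettered A to D. CHOP is the stress-induced transcription factor encoded by Ddit3. Within each genotype, cells were either untreated or exposed for 4 h or 8 h to 2 µg/ml tunicamycin, an inhibitor of N-glycosylation that loads the endoplasmic reticulum (ER) with unfolded proteins. Passage 3 was stated for 3 of the 4 untreated wild type arrays and for no other array. The labels gave the untreated cells neither a time nor a solvent, so an effect of tunicamycin cannot be told apart from one of time in culture or handling. They also do not say whether arrays of the same group stem from different cultures, so each p-value reflects the spread among these arrays, which may be technical.

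Introns are removed from pre-mRNA by the spliceosome, which assembles from small nuclear ribonucleoproteins (snRNPs). The U1 snRNP reads the 5′ splice site, U2AF and the U2 snRNP read the 3′ splice site and the branch point, and the PRPF proteins act mainly in the tri-snRNP and the catalytic core. SR proteins mostly favour the use of an exon, whereas hnRNP and polypyrimidine tract binding (PTB) proteins often repress it. In ER stress the enzyme IRE1 cuts an intron out of Xbp1 mRNA in the cytoplasm, a reaction that does not use the spliceosome.

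By role, the 55 genes were 12 SR proteins and SR-related factors, 15 hnRNP proteins, 2 PTB proteins, 4 Sm core proteins, 1 protein specific to the U1 snRNP, 13 proteins of the U2 snRNP and the 3′ splice site, and 8 PRPF proteins. Each gene was read from its probe set of highest mean signal, and 51 passed the filter on low signal, which left 4950 of the 8251 genes. The 4 that did not pass were Hnrnpu, Prpf39, Prpf4b and Srrm2, with mean signals of 35.6, 10.7, 57.4 and 0.767 over the 24 arrays. In a fit without the filter none of these 4 was called. Signals are the deposited linear values, changes are differences in log2(signal + 5.7), and such a change understates the fold of a gene with a low signal. A gene was called when its limma p-value, adjusted by the Benjamini-Hochberg method over all 4950 genes, was below 0.05.

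The arrays had been scaled alike before deposit, with trimmed means of 250.1 to 250.2 and median signals of 48.2 to 72.6. Ddit3 lay between 6.9 and 40.4 on the 12 CHOP-/- arrays. On wild type arrays it lay between 215.5 and 437 in untreated cells, 2773.9 and 4396.6 at 4 h, and 3857 and 4883 at 8 h, so the genotypes separated on every array. Hspa5, which encodes the ER chaperone BiP, rose at 8 h by 0.74 on the log2 scale in both genotypes (adjusted p = 1.63e-05 in CHOP-/- and 1.34e-05 in wild type cells, limma). Of 11 fibroblast markers, 10 had a mean signal above the filter level of 55.9, against 4 of 7 leukocyte, 1 of 4 epithelial, 0 of 4 endothelial, 2 of 5 muscle and 1 of 5 neural markers.

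After 8 h of tunicamycin, few splicing genes changed, and each change was under 2-fold. In CHOP-/- cells 3 of the 51 tested genes were called, against 15.5% of all genes tested. Srsf10 rose, and Hnrnph2 and Hnrnpa2b1 fell. Among the same genes in wild type cells 5 were called, against 18.3% of all genes tested. Prpf38b, Srsf10 and Srsf2 rose, and Hnrnph2 and Srsf5 fell. As a share of the splicing genes these counts were 5.88% in CHOP-/- cells and 9.8% in wild type cells, both below the share over all genes. Srsf10 and Hnrnph2 were called in both genotypes, in the same direction in each. At the same time 3 of 10 tested fibroblast markers fell in each genotype, with the lowest change for S100a4, at -1.41 in CHOP-/- cells and -1.04 in wild type cells, and their part in the splicing values was not tested.

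**Figure D1:**
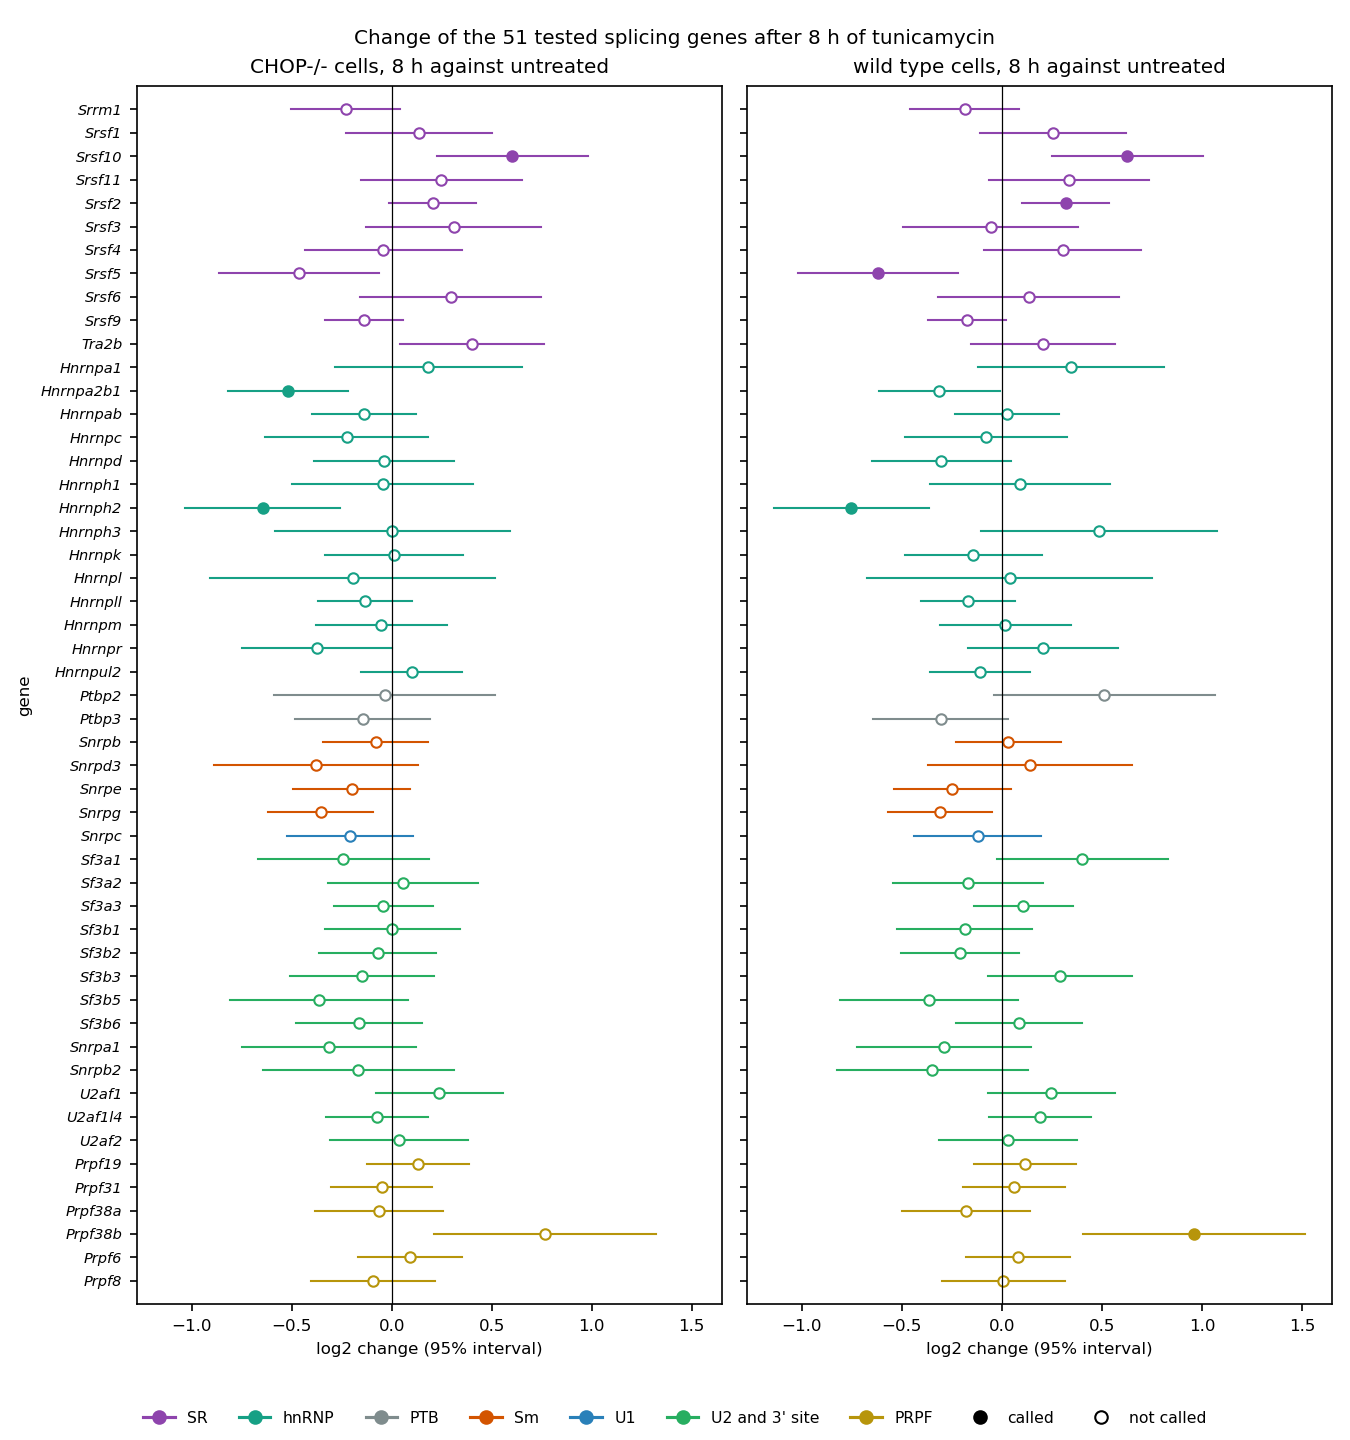
Log2 change (horizontal axis, with its 95% interval) of each of the 51 tested splicing genes at 8 h against untreated, in CHOP-/- cells (left) and wild type cells (right). Colours mark the role and filled points are genes called at adjusted p under 0.05: 3 in CHOP-/- and 5 in wild type cells, with most other points close to 0.

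The 95% intervals set bounds on the size of the changes. The 95% interval of the change at 8 h stayed within 2-fold of no change for 49 of the 51 genes in CHOP-/- cells, a share of 96.1% against 82.3% of all genes. For wild type cells this held for 45 of the 51, a share of 88.2% against 81.8% of all genes. Within 1.5-fold of no change the interval stayed for only 30 of the 51 in each genotype, a share of 58.8%. Over all genes that share was 44.7% in CHOP-/- cells and 43.4% in wild type cells. The median change of the splicing genes was -0.064 in CHOP-/- cells and 0.030 in wild type cells, against -0.011 and -0.019 over all genes tested. With each array centred on its median instead, the median of the splicing genes in CHOP-/- cells turned to 0.020, and that of all genes was 0.076. The median standard error was 0.167 for the splicing genes and 0.182 for all genes, so the splicing genes were measured with about the same precision as the rest.

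Among the 11 tested SR proteins and SR-related factors, 1 rose and 0 fell at 8 h in CHOP-/- cells. That was a share of 9.09% against 15.5% of all genes. In wild type cells 2 rose and 1 fell, a share of 27.3% against 18.3% of all genes. Srsf10 encodes an SR protein known as a splicing repressor in cells whose SR proteins lose phosphate, as in heat shock. On CHOP-/- arrays A to D its signals were 176.8, 141.3, 130.5 and 136.6 in untreated cells, 132.6, 171.5, 127.1 and 129.2 at 4 h, and 246.9, 181.6, 230 and 242.2 at 8 h. On wild type arrays A to D they were 169, 104.6, 153.8 and 166.4 in untreated cells, 199.7, 243.9, 143.2 and 217.9 at 4 h, and 266.4, 157.1, 277.4 and 272.1 at 8 h. All 4 CHOP-/- arrays at 8 h lay above all untreated and all 4 h CHOP-/- arrays. Of the 4 wild type arrays at 8 h, 3 lay above every untreated array, and array B lay within the untreated range. The change at 8 h was 0.60 ± 0.18 (SE, n = 4 arrays against 4, adjusted p = 0.025, limma) in CHOP-/- cells and 0.63 ± 0.18 (SE, adjusted p = 0.0175) in wild type cells, which is 1.52-fold and 1.54-fold.

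The Srsf10 call was close to the threshold. In CHOP-/- cells it ended without untreated array C or D or without 8 h array A, C or D, with changes of 0.54 to 0.60 and adjusted p between 0.056 and 0.0795. The wild type call ended without untreated array B or without 8 h array A, C or D, with changes of 0.50 to 0.57 and adjusted p between 0.0554 and 0.078, and with only the groups compared (adjusted p = 0.0644). A further Srsf10 probe set, fitted without the filter, gave 0.074 (adjusted p = 0.929) in CHOP-/- cells and 0.45 (adjusted p = 0.284) in wild type cells. With both probe sets averaged, the change in CHOP-/- cells was 0.34 (adjusted p = 0.122).

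Srsf5 encodes an SR protein that binds exonic enhancers. Its signals on CHOP-/- arrays A to D were 1062.2, 1457.5, 1496.8 and 1644.9 in untreated cells, 1649, 1504.2, 932.7 and 1207.9 at 4 h, and 845.9, 1015.3, 1289.7 and 947.9 at 8 h. The signals on wild type arrays A to D were 1809.1, 1506.8, 2458.6 and 1210.4 in untreated cells, 1614.8, 1694, 1648.4 and 1727.6 at 4 h, and 958.7, 953.2, 1128.9 and 1374.3 at 8 h. Every wild type array at 8 h lay below every array at 4 h, and the untreated and 8 h ranges overlapped only through array D of each. The change at 8 h against untreated was -0.46 ± 0.19 (SE, adjusted p = 0.114, limma) in CHOP-/- cells and -0.62 ± 0.19 (SE, adjusted p = 0.0278) in wild type cells. The wild type call ended without untreated array A or C or without 8 h array A, B or C, with changes of -0.62 to -0.45 and adjusted p between 0.0547 and 0.125, after median centring (adjusted p = 0.106), and with only the groups compared (adjusted p = 0.0507).

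Srsf2 encodes SC35, an SR protein of exon recognition that marks nuclear speckles. Its CHOP-/- signals were 2155.5, 2328.1, 3139.4 and 2029.2 in untreated cells, 2552.6, 2418.9, 2158 and 1908.8 at 4 h, and 2704.8, 2800.6, 2979.2 and 2763.7 at 8 h, on arrays A to D. Its wild type signals were 2460.9, 2543, 2597.3 and 2481.1 in untreated cells, 2744.7, 2557.5, 2793.7 and 2946.2 at 4 h, and 3009.4, 3049.6, 2938.3 and 3582.1 at 8 h. In CHOP-/- cells untreated array C lay above every array at 8 h, whereas in wild type cells the 8 h and untreated arrays did not overlap. The change was 0.20 ± 0.11 (SE, adjusted p = 0.207, limma) in CHOP-/- cells and 0.32 ± 0.11 (SE, adjusted p = 0.0368) in wild type cells, the smallest of the 5 wild type changes called. Leaving out any 1 of the 4 untreated or 4 8 h wild type arrays ended the call, with changes of 0.28 to 0.34 and adjusted p between 0.0528 and 0.116. It also ended with the signals as deposited (adjusted p = 0.0638), with each array centred on its median (adjusted p = 0.147), without the filter (adjusted p = 0.057) and with the mean of probe sets (adjusted p = 0.0631), so that it held in 4 of 16 other settings. Without untreated array C, Srsf2 was called in CHOP-/- cells. A further Srsf2 probe set gave -0.14 (adjusted p = 0.529) in CHOP-/- cells and 0.16 (adjusted p = 0.454) in wild type cells.

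The other 8 tested SR and SR-related genes were not called at 8 h in either genotype. They were Srsf1, Srsf3, Srsf4, Srsf6, Srsf9, Srsf11, Srrm1, which encodes an SR-rich splicing coactivator, and Tra2b, which encodes an activator of exons rich in GAA. Their changes ran between -0.23 for Srrm1 and 0.40 for Tra2b in CHOP-/- cells, and between -0.19 for Srrm1 and 0.34 for Srsf11 in wild type cells. Tra2b came closest to a call, with a 95% interval of 0.040 to 0.76 and an adjusted p of 0.129 (limma) in CHOP-/- cells, where it was called without 8 h array B.

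Among the 14 tested hnRNP proteins, 0 rose and 2 fell in CHOP-/- cells at 8 h, a share of 14.3% against 15.5% of all genes. In wild type cells 0 rose and 1 fell, a share of 7.14% against 18.3% of all genes. Hnrnph2 encodes a protein of the hnRNP H family, which binds runs of G. Its CHOP-/- signals on arrays A to D were 221.3, 223.6, 166.3 and 216.8 in untreated cells, 193.5, 139.7, 131.7 and 187.3 at 4 h, and 112.2, 101.1, 140.8 and 167.5 at 8 h. Its wild type signals were 227, 168.8, 245.6 and 175.5 in untreated cells, 188, 182.6, 132.7 and 105 at 4 h, and 129.6, 98.9, 146.3 and 106.3 at 8 h. All wild type arrays at 8 h lay below all untreated ones, and in CHOP-/- cells only 8 h array D and untreated array C crossed. The change at 8 h was -0.64 ± 0.19 (SE, adjusted p = 0.0205, limma) in CHOP-/- cells and -0.75 ± 0.19 (SE, adjusted p = 0.00639) in wild type cells, so the signal was 1.56-fold and 1.68-fold lower after tunicamycin than in untreated cells.

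The wild type Hnrnph2 call held in all 16 other settings tried, with adjusted p between 0.0035 and 0.0276. The CHOP-/- call ended without untreated array B or without 8 h array A or B, with changes of -0.59 to -0.55 and adjusted p between 0.0644 and 0.0712, and with each array centred on its median (adjusted p = 0.0743). The related genes Hnrnph1 and Hnrnph3 were not called at 8 h in either genotype, with -0.044 and 0.0040 in CHOP-/- cells and 0.091 and 0.48 in wild type cells. Whether probes of 1 family member also bound RNA of another was not tested.

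Hnrnpa2b1 encodes an hnRNP of splicing and of mRNA transport. Its CHOP-/- signals on arrays A to D were 1736.3, 2167.8, 2003.5 and 2017.9 in untreated cells, 1486.6, 1504.3, 1200.7 and 1610.5 at 4 h, and 1252.6, 1272.6, 1660.5 and 1445.8 at 8 h. Its wild type signals were 2187.9, 2265.5, 2653.6 and 1463.9 in untreated cells, 1837.3, 2245.8, 2005.2 and 1595.8 at 4 h, and 1702, 1752.4, 1776.1 and 1391.7 at 8 h. In CHOP-/- cells the untreated arrays lay above all arrays at 4 h and at 8 h, and in wild type cells untreated array D lay within the lower range seen at 8 h. At 8 h the change was -0.52 ± 0.15 (SE, adjusted p = 0.0162, limma) in CHOP-/- cells and -0.31 ± 0.15 (SE, adjusted p = 0.152) in wild type cells, where it was called without untreated array D. The CHOP-/- call ended without 8 h array A (-0.45, adjusted p = 0.0629), with each array centred on its median (-0.40, adjusted p = 0.216) and with the mean of the gene's probe sets (-0.22, adjusted p = 0.603). The further probe set alone gave 0.073 (SE 0.367, adjusted p = 0.963) in CHOP-/- cells.

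The hnRNP genes that were not called at 8 h in either genotype included Hnrnpa1, an exon repressor, Hnrnpc, which binds runs of U, Hnrnpk, which binds runs of C, Hnrnpd, which takes part in the decay of AU-rich mRNAs, and Hnrnpl, which binds CA repeats. In the order named, their changes were 0.18, -0.23, 0.011, -0.037 and -0.19 in CHOP-/- cells, and 0.35, -0.081, -0.14, -0.30 and 0.040 in wild type cells. Hnrnpl had the widest of these intervals, -0.91 to 0.52 in CHOP-/- cells and -0.67 to 0.75 in wild type cells. Hnrnpa1 lay near the filter level of 55.9, with a mean signal of 67.8 over the 24 arrays. The PTB genes Ptbp2, best known from neurons, and Ptbp3 gave -0.035 and -0.14 in CHOP-/- cells and 0.51 and -0.31 in wild type cells, and neither was called.

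At 8 h limma called none of the 4 Sm genes, Snrpc, or the 13 genes of the U2 snRNP and the 3′ splice site. Over all genes the share called was 15.5% in CHOP-/- cells and 18.3% in wild type cells. The PRPF genes are given apart below. In each genotype 1 of the 4 Sm genes and 0 of the 13 had an unadjusted limma p below 0.05. The Sm proteins form the ring around each spliceosomal snRNA, and Snrpb, Snrpd3, Snrpe and Snrpg had changes of -0.38 to -0.080 in CHOP-/- cells and -0.31 to 0.14 in wild type cells. Snrpg gave -0.36 (adjusted p = 0.0587) in CHOP-/- cells, where it was called without untreated array A, and -0.31 (adjusted p = 0.0966) in wild type cells. Snrpc, whose product helps the U1 snRNP to hold the 5′ splice site, gave -0.21 in CHOP-/- cells and -0.12 in wild type cells. The 13 U2 and 3′ splice site genes ran between -0.36 for Sf3b5 and 0.24 for U2af1 in CHOP-/- cells, and between -0.36 for Sf3b5 and 0.40 for Sf3a1 in wild type cells. For all 13, the 95% interval at 8 h stayed within 2-fold of no change in both genotypes.

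Of the 6 tested PRPF genes, 0 were called at 8 h in CHOP-/- cells, against 15.5% of all genes. There 1 had an unadjusted limma p below 0.05. In wild type cells 1 rose, a share of 16.7% against 18.3% of all genes. The gene was Prpf38b in both cases, which encodes a relative of the yeast tri-snRNP protein Prp38. Its CHOP-/- signals on arrays A to D were 169.3, 144.6, 189.8 and 161.2 in untreated cells, 174.2, 223.1, 59.7 and 114.2 at 4 h, and 304.3, 209.2, 358.4 and 285.2 at 8 h. Its wild type signals were 158.5, 122.6, 185.8 and 144.4 in untreated cells, 302.6, 213, 144.4 and 283.7 at 4 h, and 305.1, 256.7, 292.5 and 385.3 at 8 h. In each genotype all arrays at 8 h lay above all untreated arrays, and the arrays at 4 h were widely spread. The change at 8 h was 0.77 ± 0.27 (SE, adjusted p = 0.0552, limma) in CHOP-/- cells and 0.96 ± 0.27 (SE, adjusted p = 0.014) in wild type cells, which is 1.70-fold and 1.95-fold. The wild type call ended without 8 h array D (0.85, adjusted p = 0.0529). Prpf38b became a call in CHOP-/- cells with a pseudocount of 16, after median centring, with only the groups compared and without 8 h array B.

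The remaining PRPF genes were not called. Prpf8, which sits at the catalytic centre, gave -0.093 in CHOP-/- cells and 0.0082 in wild type cells. Prpf6 and Prpf31 of the tri-snRNP gave 0.093 and -0.050 in CHOP-/- cells and 0.081 and 0.061 in wild type cells. Prpf19, a ubiquitin ligase of the activated spliceosome, gave 0.13 in CHOP-/- cells and 0.12 in wild type cells.

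**Figure D2:**
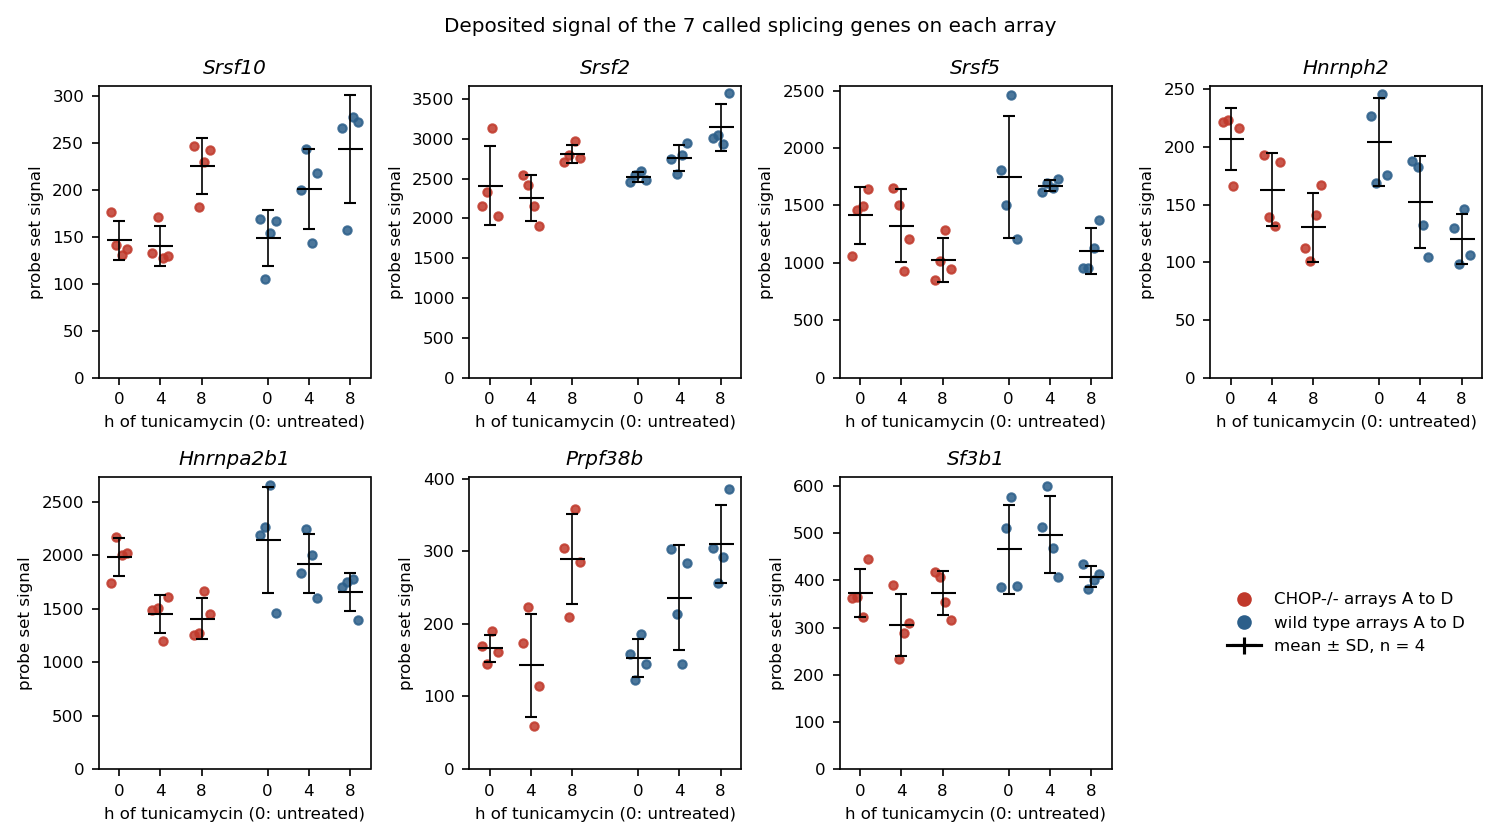
Deposited signal (vertical axis, linear, from 0) of the 7 splicing genes called in at least 1 comparison, on every array, by hours of tunicamycin (horizontal axis, 0 for untreated), with CHOP-/- arrays left of wild type arrays. Black bars give the mean ± SD of 4 arrays. Srsf10 and Prpf38b stand higher at 8 h in both genotypes, Hnrnph2 stands lower, and Sf3b1 at 4 h is lower in CHOP-/- than in wild type cells.

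The region around annotated transcription starts was read for these genes in RefSeq, assembly GRCm38.p6, with 250 bases before and 50 after each start. Not every start was the outermost one of its gene. Of the 55 splicing genes 49 had an entry, with 62 starts. The ER stress response element, CCAAT and CCACG with 9 bases between, was searched on both strands, as were the UPRE core TGACGTG, the cAMP response element TGACGTCA and the C/EBP-ATF element TTGCATCA. The ER stress response element was in 0 of the 62 windows and in 0.119% of all 32851 windows in the table. The C/EBP-ATF element was likewise in 0 of the 62, and in 0.895% of all windows. The UPRE core was in 1 of the 62, of Snrpa1, and in 2.01% of all windows, and the cAMP response element was in 1, of Snrpg, and in 1.79% of all windows. A plain CCAAT box, which is part of the first element, was in 48.4% of the splicing windows and 37.4% of all windows. A match is a description of the letters, not a site.

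The windows of 4 genes called at 8 h are shown so that genes that rose and genes that fell can be read side by side. They are given 5′ to 3′ on the gene's strand, with CCAAT or its complement in capitals. They lie at chrX:134600929-134601228 (plus strand) for Hnrnph2, chr3:108911680-108911979 (minus strand) for Prpf38b, chr4:135855821-135856120 (plus strand) for Srsf10 and chr12:80945249-80945548 (plus strand) for Srsf5. The Srsf10 window lies wholly inside the annotated gene, which begins at 135855752. The window of Srsf2, not shown, also lies wholly inside its gene.
Hnrnph2: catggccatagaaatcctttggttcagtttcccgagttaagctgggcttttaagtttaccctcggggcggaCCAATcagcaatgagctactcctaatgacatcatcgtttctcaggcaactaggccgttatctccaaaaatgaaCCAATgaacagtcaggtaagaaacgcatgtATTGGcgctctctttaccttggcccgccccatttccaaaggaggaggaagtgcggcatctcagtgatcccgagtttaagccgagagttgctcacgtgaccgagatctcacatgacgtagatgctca
Prpf38b: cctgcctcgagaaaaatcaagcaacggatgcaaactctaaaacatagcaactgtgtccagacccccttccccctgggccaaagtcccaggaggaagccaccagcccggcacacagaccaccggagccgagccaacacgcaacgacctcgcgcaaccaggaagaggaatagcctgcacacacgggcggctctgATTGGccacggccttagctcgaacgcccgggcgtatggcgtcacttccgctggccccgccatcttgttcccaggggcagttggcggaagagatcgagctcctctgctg
Srsf10: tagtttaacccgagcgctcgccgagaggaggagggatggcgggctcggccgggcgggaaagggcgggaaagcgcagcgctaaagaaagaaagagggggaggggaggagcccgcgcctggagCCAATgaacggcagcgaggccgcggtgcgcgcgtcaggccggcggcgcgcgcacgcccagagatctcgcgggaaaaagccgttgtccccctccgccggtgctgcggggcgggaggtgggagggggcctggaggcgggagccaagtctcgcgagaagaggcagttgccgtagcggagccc
Srsf5: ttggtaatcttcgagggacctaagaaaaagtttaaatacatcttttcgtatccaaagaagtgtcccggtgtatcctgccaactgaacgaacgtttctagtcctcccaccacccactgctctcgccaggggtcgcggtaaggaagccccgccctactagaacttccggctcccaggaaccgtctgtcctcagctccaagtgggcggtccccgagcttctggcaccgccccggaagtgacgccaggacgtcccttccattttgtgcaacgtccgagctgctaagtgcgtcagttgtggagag
Hnrnph2, which fell, holds 3 CCAAT boxes, and Prpf38b and Srsf10, which rose, hold 1 each, while Srsf5, which fell, holds none. Among the other called genes, Srsf2 and Hnrnpa2b1 hold a CCAAT box and Sf3b1 holds none.

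After 4 h of tunicamycin none of the 51 tested splicing genes was called. In CHOP-/- cells limma called 0 of the 51, against 1.64% of all genes tested. There 4 had an unadjusted p below 0.05, a share of 7.84% against 12.1% of all genes. In wild type cells limma called 0 of the 51, against 2.34% of all genes tested. There 2 had an unadjusted p below 0.05, a share of 3.92% against 11.7% of all genes. The genes below 0.05 were Snrpd3, Hnrnph1, Hnrnpr and Hnrnpa2b1 in CHOP-/- cells, with -0.71, -0.55, -0.54 and -0.48. In wild type cells they were Hnrnpa1 and Hnrnph2, with 0.60 and -0.48. Hnrnpa1 was read near the filter level, with 2 of the 4 untreated wild type arrays under it. In CHOP-/- cells 37 of the 51 changes were negative, with a median of -0.087 against -0.0048 over all genes. In wild type cells 29 of the 51 were negative, with a median of -0.021 against -0.024 over all genes. For 49 of the 51 genes in each genotype the 95% interval at 4 h stayed within 2-fold of no change.

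Between 4 h and 8 h, 2 of the 51 splicing genes rose in CHOP-/- cells, a share of 3.92%, against 6.46% of all genes called in both directions. Prpf38b rose by 1.13 ± 0.27 (SE, adjusted p = 0.0131, limma), the only splicing gene past 2-fold in any comparison over time, and Srsf10 rose by 0.65 ± 0.18 (SE, adjusted p = 0.0322). Array C at 4 h had a Prpf38b signal of 59.7, the lowest of the 24. Without it the Prpf38b change was 0.79 (adjusted p = 0.0641), and without 4 h array D it was 1.07 (adjusted p = 0.0509), and with only the groups compared the adjusted p was 0.0858. The Srsf10 call ended without any 1 of 4 h arrays A, C and D and 8 h arrays A, C and D, with changes of 0.59 to 0.64 and adjusted p between 0.0557 and 0.101, and without the filter (adjusted p = 0.0545). Over the same interval in wild type cells limma called 0 of the 51, against 4.67% of all genes tested. There 5 had an unadjusted p below 0.05, a share of 9.8% against 16.2% of all genes. Srsf5 had the lowest change of the 51, with -0.64 (adjusted p = 0.0616).

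**Figure D3:**
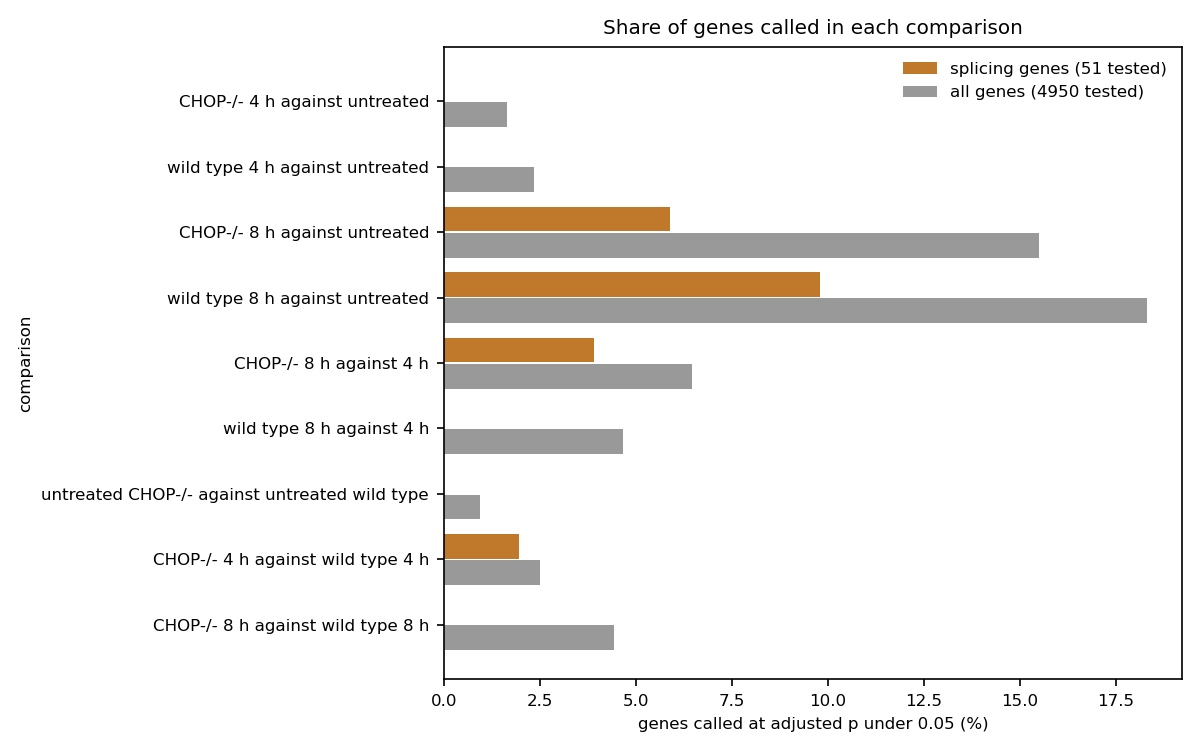
Share of genes called (horizontal axis, percent) among the 51 tested splicing genes and the 4950 genes tested, in each comparison (vertical axis). At 8 h against untreated the share of splicing genes was below that of all genes, at 5.88% against 15.5% in CHOP-/- cells and 9.8% against 18.3% in wild type cells. The other comparisons called 0 to 2 splicing genes, too few for their shares to be ranked. With the signals as deposited, 3 of the 51 were called between 4 h and 8 h in CHOP-/- cells, against 5.7% of all genes.

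The comparison of CHOP-/- with wild type cells asked whether these genes differed between the genotypes. Each genotype came from its own cells, so an effect of CHOP loss cannot be told apart from other differences between the cell preparations. In untreated cells limma called 0 of the 51, against 0.949% of all genes tested. An unadjusted p below 0.05 was found for 0 of the 51, against 8.97% of all genes. At 4 h 1 of the 51 was called, against 2.51% of all genes tested, and it was lower in CHOP-/- cells. At 8 h limma called 0 of the 51, against 4.42% of all genes tested, and 8 had an unadjusted p below 0.05.

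The gene called at 4 h was Sf3b1, whose product is the SF3b subunit that holds the branch point in the U2 snRNP. Its signals on arrays A to D at 4 h were 389.5, 233, 288.2 and 310.7 in CHOP-/- cells and 513.5, 599.8, 468.1 and 407.3 in wild type cells. All 4 CHOP-/- arrays lay below all 4 wild type arrays. The difference was -0.68 ± 0.16 (SE, adjusted p = 0.0225, limma), with means of 305.4 ± 64.9 in CHOP-/- and 497.2 ± 81.1 in wild type cells (SD, n = 4). It was -0.32 (adjusted p = 0.594) in untreated cells and -0.13 (adjusted p = 0.776) at 8 h. A second Sf3b1 probe set gave -0.18 at 4 h (adjusted p = 0.769). The call ended without wild type array A or B or CHOP-/- array B or C, with differences of -0.68 to -0.55 and adjusted p between 0.0532 and 0.101. It also ended with each array centred on its median (adjusted p = 0.0583), with the mean of both probe sets (-0.43, adjusted p = 0.122) and in a fit of these 2 groups alone (adjusted p = 0.144).

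More splicing genes had lower than higher values in CHOP-/- cells, by amounts that single genes did not resolve. At 4 h 39 of the 51 differences were negative, with a median of -0.12 against 0.014 over all genes tested. At 8 h 38 of the 51 were negative, with a median of -0.11 against 0.0028 over all genes, and in untreated cells 32 were negative, with a median of -0.054 against 0.0066. After median centring of the arrays the median at 4 h was -0.17, and with the signals as deposited it was -0.15. The mean of the splicing genes on a single array also departed from its group. The largest departure at each time was 0.139 on untreated wild type array C, -0.105 at 4 h on CHOP-/- array C and -0.118 at 8 h on wild type array B. Untreated wild type array D departed by -0.11. The 51 differences are thus not independent of each other. The 12 genes with an unadjusted p below 0.05 at 4 h were a share of 23.5%, against 15.9% of all genes, and all were lower in CHOP-/- cells. Besides Sf3b1 they were Srsf2, Prpf38b, Srsf11, Hnrnpa2b1, Sf3a3, Snrpd3, Srsf10, Hnrnph1, Hnrnpr, Snrpa1 and Hnrnph3, with differences of -0.82 to -0.34, and 11 of the 12 did not pass the adjusted threshold. Sf3a3, a subunit of the SF3a part of the U2 snRNP, did not overlap between the genotypes at 4 h or at 8 h, with -0.34 (adjusted p = 0.147) and -0.27 (adjusted p = 0.228).

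**Figure D4:**
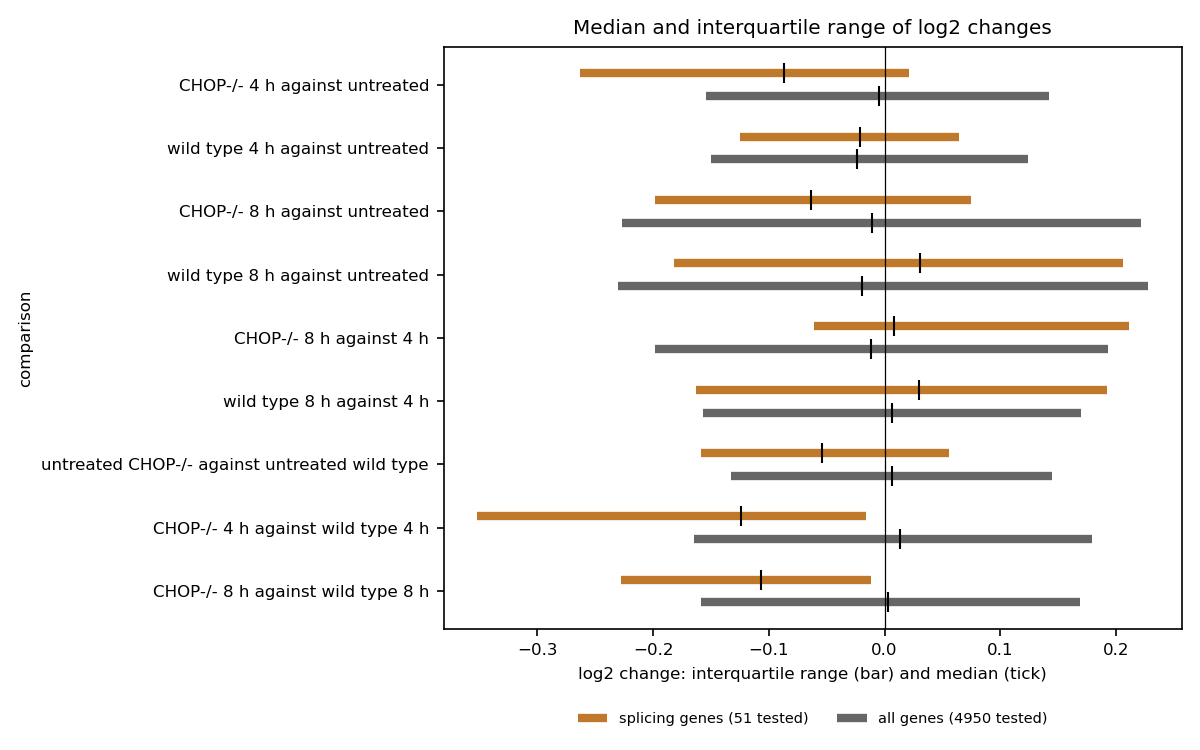
Median (tick) and interquartile range (bar) of log2 changes (horizontal axis) of the 51 tested splicing genes and of the 4950 genes tested, in each comparison (vertical axis). The splicing genes lie to the left of all genes in CHOP-/- against wild type cells at 4 h and 8 h, with medians of -0.12 and -0.11 against 0.014 and 0.0028.

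Marker lists of other cell types were read beside these differences. Of 7 leukocyte markers 3 were tested, and limma called 0 of them between the genotypes in untreated cells, at 4 h or at 8 h, with 0 at an unadjusted p below 0.05. Lyz2, a lysozyme of macrophages, gave -1.37 in untreated cells, -1.90 at 4 h and -1.89 at 8 h, and its signals lay between 32.7 and 197.4 in CHOP-/- cells and between 76.7 and 1332 in wild type cells at 8 h. Wild type arrays of 1 group thus differed widely from each other in this gene. Csf1r reached 149.1 in CHOP-/- cells and 442 in wild type cells, and Adgre1 reached 60.1 and 180.5. The summed leukocyte signal over the 7 genes lay between 574.6 and 1301.6 in CHOP-/- cells and between 538.2 and 3286.3 in wild type cells at 4 h, and between 422.2 and 1131.7 in CHOP-/- cells and between 466 and 3096.1 in wild type cells at 8 h. Ptprc, which marks all leukocytes, stayed between 0.7 and 32.9 on every array, and Cd3e of T cells between 5.5 and 11.8, whereas Cd14 of monocytes reached 844.8 in CHOP-/- cells and 1375.2 in wild type cells. Of the 10 tested fibroblast markers, limma called 0 between the genotypes in untreated cells and 0 at 4 h. Each time 2 had an unadjusted p below 0.05. At 8 h 1 was higher and 1 lower in CHOP-/- cells, with values between -0.906 for Pdgfra and 0.755 for Pdgfrb. Over all genes tested, the shares called were 0.949% in untreated cells, 2.51% at 4 h and 4.42% at 8 h. The summed signal of 11 fibroblast markers lay between 21252.3 and 30752.4 in CHOP-/- cells and between 21261.1 and 26385.2 in wild type cells at 4 h, and between 20322.8 and 30226.5 in CHOP-/- cells and between 19052.2 and 27089.5 in wild type cells at 8 h. Tubb3, the 1 tested neural marker, was higher in CHOP-/- cells by 0.73 at 8 h and was called. The part of these lists in the splicing values was not tested. Within bulk RNA, fewer cells of a type and less RNA per cell cannot be told apart.

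The response to tunicamycin was not shown to differ between the genotypes for any splicing gene. When the wild type change was subtracted from the CHOP-/- change at 4 h, limma called 0 of the 51, against 0% of all genes tested, and 1 had an unadjusted p below 0.05. At 8 h it called 0 of the 51, against 0.0404% of all genes tested, and 2 had an unadjusted p below 0.05. Prpf38b gave the lowest value at 4 h, -0.91 (95% interval -1.69 to -0.12, adjusted p = 0.996), and -0.20 (95% interval -0.98 to 0.59) at 8 h. For Srsf10 and Hnrnph2, called in both genotypes at 8 h, the differences were -0.023 (95% interval -0.55 to 0.51) and 0.11 (95% interval -0.44 to 0.66). Hnrnpa2b1, Srsf2 and Srsf5, called in 1 genotype, gave -0.21 (95% interval -0.63 to 0.22), -0.11 (95% interval -0.42 to 0.19) and 0.16 (95% interval -0.41 to 0.72).

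Of the splicing genes on the array, 17 had further probe sets, 74 probe sets in all. When all probe sets were fitted with no filter, none of the 17 further probe sets of tested genes was called in any of the 11 comparisons. This fit tests more features, so its adjusted p-values are higher than those given for the main probe sets.

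Splicing genes outside the 55 were called at 8 h at a share near that of all genes. The 56 tested were snRNP, LSM, helicase and associated genes, and Hnrnpdl, which was left out of the 55. Of these, 6 rose and 1 fell at 8 h in CHOP-/- cells, a share of 12.5% against 15.5% of all genes. In wild type cells 8 rose and 1 fell, a share of 16.1% against 18.3%. Luc7l, related to a yeast U1 snRNP protein, rose by 1.05 ± 0.16 (SE, adjusted p = 9.58e-05, limma) in CHOP-/- cells and by 1.09 ± 0.16 (SE, adjusted p = 4.74e-05) in wild type cells. Between 4 h and 8 h in CHOP-/- cells Luc7l rose by 0.54 (adjusted p = 0.0479), a call that held in 7 of 16 other settings. Luc7l2 rose by 0.55 in wild type cells at 8 h (adjusted p = 0.0106), which held in all 16. In CHOP-/- cells Luc7l2 rose between 4 h and 8 h by 0.59 (adjusted p = 0.0173), which held in 11 of 16. Lsm3, of the ring that binds U6 snRNA, fell by 0.83 in CHOP-/- cells (adjusted p = 0.00224) and by 0.59 in wild type cells (adjusted p = 0.0217). The wild type Lsm3 call ended without 8 h array B (-0.56, adjusted p = 0.0534), without untreated array B (-0.57, adjusted p = 0.0564) and with each array centred on its median. Rbm39, an SR-related coactivator, gave 0.87 in CHOP-/- cells and 0.75 in wild type cells, and with the mean of its probe sets -0.19 and -0.060, so its direction rested on 1 probe set. The wild type Rbm39 call also ended without untreated array D (0.57, adjusted p = 0.0631). At 4 h limma called 0 of the 56 in CHOP-/- cells, with 7 at an unadjusted p below 0.05. In wild type cells it called 2, a share of 3.57% against 2.34%. Luc7l rose by 0.72 (adjusted p = 0.0153) and Hnrnpdl by 0.57 (adjusted p = 0.0255). At 8 h Hnrnpdl rose by 0.57 in CHOP-/- cells (adjusted p = 0.00603) and by 0.48 in wild type cells (adjusted p = 0.0173). The wild type Hnrnpdl calls held in 8 of 17 other settings at 4 h and 10 of 16 at 8 h. The Luc7l call at 4 h held in 14 of 17.

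Cwc22, which links splicing to exon junction complexes, was the 1 gene of the 56 called lower in CHOP-/- than in wild type cells, at 4 h (-0.93 ± 0.21, SE, adjusted p = 0.0129, limma) and at 8 h (-0.76 ± 0.21, SE, adjusted p = 0.0346). Over all genes tested, 2.51% were called at 4 h and 4.42% at 8 h, in both directions. At 4 h the call ended without CHOP-/- array C (-0.74, adjusted p = 0.0727) or wild type array B (-0.87, adjusted p = 0.0588), and with only the groups compared (adjusted p = 0.119). At 8 h it ended without any 1 of the 4 CHOP-/- arrays or of wild type arrays A, B and D, with differences of -0.79 to -0.65 and adjusted p between 0.061 and 0.127, with the signals as deposited (adjusted p = 0.0571) and without the filter (adjusted p = 0.0554).

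Among 8 tested kinases of SR proteins, with Top1 counted among them, 1 rose at 8 h in CHOP-/- cells, a share of 12.5% against 15.5% of all genes, and 2 rose in wild type cells, a share of 25% against 18.3%. At 4 h limma called 0 in CHOP-/- cells, against 1.64% of all genes, and 2 rose in wild type cells, against 2.34%. CLK kinases phosphorylate SR proteins and set their activity. Clk4 rose by 1.12 ± 0.23 (SE, adjusted p = 0.00143, limma) in CHOP-/- cells and by 1.10 ± 0.23 (SE, adjusted p = 0.00138) in wild type cells at 8 h. At 4 h it gave 0.86 in CHOP-/- cells, where 4 of the 8 had an unadjusted p below 0.05, and rose by 1.25 in wild type cells (adjusted p = 0.00225). Clk2 rose in wild type cells by 0.92 at 4 h (adjusted p = 0.00758) and by 0.87 at 8 h (adjusted p = 0.00226). These Clk4 and Clk2 calls held in every other setting tried.

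Of 21 tested RNA-binding regulators, 1 was called at 8 h in CHOP-/- cells, a share of 4.76% against 15.5% of all genes, and limma called 0 in wild type cells, against 18.3%, with 1 at an unadjusted p below 0.05. The called gene was Celf2, named after its value was seen, which fell by 0.94 (adjusted p = 0.018), and by 0.87 without 8 h array B (adjusted p = 0.0503). Mbnl1, a regulator of alternative exons, was higher in CHOP-/- than in wild type cells at 8 h, by 0.75 ± 0.16 (SE, adjusted p = 0.00653, limma), and by 0.73 with each array centred on its median (adjusted p = 0.0701).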

How the data were processed

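The deposited values were probe set signals, an intensity on a linear scale. Per the labels, each array was hybridised with total RNA of 1 sample, and the software and scaling were not given in the sources used here. From the values, the deposited trimmed means were the same on every array after 2% of probe sets were removed at each end. Of 12488 probe sets, 66 were controls and were left out, 10833 had 1 gene and 396 had several genes. Probe sets with several genes were used in no comparison. Signals were raised by a pseudocount of 5.7 (20th percentile over all arrays) before log2 was taken, and arrays were quantile normalized. For each gene the probe set of highest mean was kept, and genes with a mean log2 value above the 40th percentile of all genes (5.946, a signal of 55.93) were tested. limma 3.58.1 in R 4.3.3 fitted 6 group means to all 24 arrays (18 residual degrees of freedom), two-sided, with Benjamini-Hochberg adjustment over 4950 genes in each of 11 comparisons. Intervals are limma's 95% intervals for single genes and are not adjusted. The number of arrays limits the precision.

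The rule for naming was every splicing gene called in a response to tunicamycin, a genotype difference or a difference of responses, with Ddit3 and Hspa5 as checks, and for related lists up to 4 called genes with the smallest adjusted p in each comparison. The families, role groups and lists were chosen with earlier results of these data known. Letters A to D were checked as a pairing by correlating the deviations of same-letter arrays from their group means. In wild type cells every pair was over 0.1 in the 3 comparisons over time (0.279 to 0.65), as it was between genotypes at 8 h (0.304 to 0.579), and in no other comparison. The procedure was tested on simulated arrays. Promoter windows came from RefSeq, with Python 3.11.15. Alternatives tried were no further normalization, median centring, a pseudocount of 16, no filter, the mean of a gene's probe sets, only the groups compared, the replicate block and leaving out each array.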

Additional observations from a re-analysis of the deposited data

Results flagged for a closer look

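In 3 groups of 4 arrays, a single array stood apart from the other 3 by more than Dixon's 95% critical value for 4 samples. These came from 54 groups screened (7 called splicing genes, Ddit3 and Hspa5, each in 6 groups), and chance alone flags about 1 in 20 groups. Hnrnph2 had a signal of 166.3 on array C of untreated CHOP-/- cells, below the other 3 arrays at 216.8 to 223.6. Srsf10 had a signal of 171.5 on array B of CHOP-/- cells at 4 h, above the others at 127.1 to 132.6. It had a signal of 157.1 on array B of wild type cells at 8 h, below the others at 266.4 to 277.4.

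A probe set assigned to 3 genes, among them Snrpa, a protein specific to the U1 snRNP, was used in no comparison. When all probe sets were fitted with no filter it was higher at 8 h than in untreated cells, by 0.71 on the log2 scale in CHOP-/- cells and 0.83 in wild type cells, and higher at 8 h than at 4 h in CHOP-/- cells, by 0.52. The other genes of the probe set are Gm21559 and Gm5161, so its signal cannot be given to Snrpa alone.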

How the results depend on the processing

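Of the counts of splicing genes called, those in untreated cells, in wild type cells at 4 h and for the differences of responses stayed at 0 in every alternative tried. At 8 h in CHOP-/- cells the count of 3 became 1 with the mean of a gene's probe sets, 2 after median centring, 4 with a pseudocount of 16 and 4 with only the groups compared, and 0 to 4 when 1 array was left out. At 8 h in wild type cells the count of 5 became 3 after median centring, 3 with only the groups compared, 4 as deposited, without the filter and with the mean of probe sets, and 2 to 5 when 1 array was left out. Between 4 h and 8 h the count of 2 in CHOP-/- cells became 1 without the filter, 1 with only the groups compared, 3 as deposited, after median centring (each with Srsf11 added) and with the mean of probe sets (Hnrnpul2 added), and 0 to 4 when 1 array was left out, and the count of 0 in wild type cells became 1 with only the groups compared. For CHOP-/- against wild type cells at 4 h the count of 1 became 0 with median centring, with the mean of probe sets, with only the groups compared, and without wild type 4 h arrays A and C together, a setting chosen after seeing the data, and 0 to 2 when 1 array was left out. At 8 h the count of 0 became 0 to 2 when 1 array was left out. With the replicate block over all arrays the counts were 3 in CHOP-/- and 5 in wild type cells at 8 h, and no count changed. With a replicate block within each genotype, added after seeing the data, the count in CHOP-/- cells became 1 at 4 h (Hnrnpa2b1), 4 at 8 h (Tra2b added) and 3 between 4 h and 8 h (Srsf2 added), and no count in wild type cells changed. Rbm39 at 8 h turned to -0.19 in CHOP-/- cells and to -0.060 in wild type cells with the mean of its probe sets. No other named change reversed. The cause of these shifts was not tested. Signal close to background limits what can be called, as for the 4 genes that did not pass the filter.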
